A study of Mus musculus with 14 samples.

Results

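Clone I is 1 of 6 lines that were each cloned from 4T1, an established cell line of mouse mammary carcinoma, and its methylation was set against that of the other 5 clones, E, T, K, L and P. Each line had been grown from a single sorted cell, so each stands for 1 cell of the tumour line and not for the line as a whole. The 6 lines belonged to a set of 23 whose capacity to enter the blood vessels was assessed in a pool: clones E and T carry the label intravasating, and clone I is non-intravasating, as are K, L and P. No clone carried a further treatment or allele per the labels, and all were grown in the same serum-supplemented medium. Genomic DNA was bisulfite converted and sequenced in 2 rounds per clone, and the deposited tables hold 1 value per clone, so that clone I is represented by 1 of 6 columns. The tables give a methylation level, a fraction from 0 to 1, for 21965 gene promoters and for 97247 autosomal hypomethylated regions (HMRs, stretches of the genome with low methylation) out of 101564 HMRs in all. A region was counted as set apart in clone I when clone I lay above, or below, all 5 other clones by at least 0.2. This held for 13 promoters above (0.0592%) and 4 below (0.0182%), and for 374 autosomal HMRs above (0.385%) and 38 below (0.0391%). Because the level of clone I chose these regions, their differences are given as descriptions and not as tests.

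Methylation of cytosine in CpG dinucleotides is copied to the new strand at each cell division, so that the descendants of a single cell inherit its pattern with some errors. Promoters rich in CpGs are usually unmethylated whether or not the gene is active, while promoters with few CpGs are often methylated outside the tissue that uses the gene. In tumour cells, long stretches of the genome commonly lose methylation while some CpG-rich promoters gain it, and cells of the same tumour can differ in both respects.

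The sequences before the RefSeq start are shown for 6 genes at whose promoters clone I was the highest or the lowest clone. The printed sequences hold from 0 to 10 CpGs. Each is the 250 bases upstream of the start in GRCm38.p6, written 5′ to 3′ in the direction of the gene, with every CpG in capitals. Where RefSeq gave several starts, as for Rdx and Zfp600, the window with the most CpGs was taken. The sources used here do not give the boundaries of the authors' promoters, so these windows need not coincide with the measured regions. The window of Rdx lies at chr9:52047691-52047940 on the plus strand and holds 10 CpGs, that of Atp8b5 at chr4:43266909-43267158 on the plus strand holds 10, and that of Zfp600 at chr4:146156577-146156826 on the plus strand holds 2. The window of Olfr1000 lies at chr2:85608909-85609158 on the minus strand and holds 0 CpGs, that of Vmn2r32 at chr7:7479974-7480223 on the minus strand holds 2, and that of Ifna14 at chr4:88571799-88572048 on the minus strand holds 1. A CpG, which reads CG on both strands, was present in 94.6% of the 32851 RefSeq windows of 300 bases. The promoters of the first 5 genes were higher in clone I than in all other clones, and that of Ifna14 was lower.
Rdx: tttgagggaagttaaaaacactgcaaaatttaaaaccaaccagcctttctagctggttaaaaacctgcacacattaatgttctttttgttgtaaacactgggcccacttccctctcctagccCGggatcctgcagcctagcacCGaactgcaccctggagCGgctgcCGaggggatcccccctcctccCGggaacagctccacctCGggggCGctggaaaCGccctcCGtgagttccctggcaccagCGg
Atp8b5: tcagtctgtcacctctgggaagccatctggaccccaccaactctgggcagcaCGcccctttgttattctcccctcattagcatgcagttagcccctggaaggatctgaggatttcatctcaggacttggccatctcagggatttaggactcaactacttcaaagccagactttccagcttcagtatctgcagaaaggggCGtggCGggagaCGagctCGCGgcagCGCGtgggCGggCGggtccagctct
Zfp600: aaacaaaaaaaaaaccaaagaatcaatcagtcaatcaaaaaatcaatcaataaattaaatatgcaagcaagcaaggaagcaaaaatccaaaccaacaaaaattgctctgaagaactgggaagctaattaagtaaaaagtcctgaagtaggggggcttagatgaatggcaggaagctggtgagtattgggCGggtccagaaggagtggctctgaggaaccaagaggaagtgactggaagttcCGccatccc
Olfr1000: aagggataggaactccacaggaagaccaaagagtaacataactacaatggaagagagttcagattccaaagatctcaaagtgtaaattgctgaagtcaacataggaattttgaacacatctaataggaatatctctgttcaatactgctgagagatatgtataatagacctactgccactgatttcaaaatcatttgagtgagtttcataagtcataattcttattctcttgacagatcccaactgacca
Vmn2r32: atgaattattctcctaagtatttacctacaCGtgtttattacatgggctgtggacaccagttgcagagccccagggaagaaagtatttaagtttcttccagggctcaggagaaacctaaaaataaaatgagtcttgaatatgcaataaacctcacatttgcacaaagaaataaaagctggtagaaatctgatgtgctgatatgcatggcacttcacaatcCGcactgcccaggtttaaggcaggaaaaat
Ifna14: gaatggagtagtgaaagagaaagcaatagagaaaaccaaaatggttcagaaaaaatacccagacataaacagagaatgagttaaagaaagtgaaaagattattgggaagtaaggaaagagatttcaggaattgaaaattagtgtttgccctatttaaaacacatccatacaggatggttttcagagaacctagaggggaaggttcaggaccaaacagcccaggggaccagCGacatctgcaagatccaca

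The labelled mammary carcinoma origin was checked at the promoters of marker genes. In clone I the promoters of the epithelial genes Cdh1 (E-cadherin), Epcam, Krt8 and Cldn4 were at 0.0975, 0.151, 0.154 and 0.0625, and that of Krt19 was at 0.524. The promoters of the leukocyte genes Ptprc (CD45), Itgam and Cd3e were at 0.823, 0.801 and 0.704, and that of Lyz2 was at 0.309. Of the fibroblast genes, Col1a2 was at 0.894, and the lower of the 2 Pdgfra promoters was at 0.0687. None of these markers was called different in clone I, against 0.0137% of all promoters. Promoter methylation does not measure expression, so the check bears on the methylation pattern alone.

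The first comparison concerned the mean promoter level, which was highest in clone I. Over 21965 promoters the mean level was 0.412 in clone I, 0.406 in clone P, 0.404 in clone E, 0.402 in clone K, 0.377 in clone T and 0.369 in clone L. Clones I, P, E and K lay close together, and clones T and L lay apart below them. The mean of the other 5 clones was 0.392 ± 0.0170 (SD, n = 5), and clone I exceeded it by 0.0200. The exact permutation test over the 6 ways to single out 1 clone gave a two-sided p of 0.5. Its smallest possible p is 0.167, so it could not pass 0.05. Set against clones E, K and P alone, whose mean was 0.404 ± 0.00184 (SD, n = 3), clone I was higher by 0.00777. Against clones T and L, with a mean of 0.373, it was higher by 0.0384. By arithmetic, 76.7% of the difference between clone I and the mean of the others came from clones T and L, and 23.3% from clones E, K and P. The first rank itself rested on a lead of 0.00612 over clone P.

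**Figure D1:**
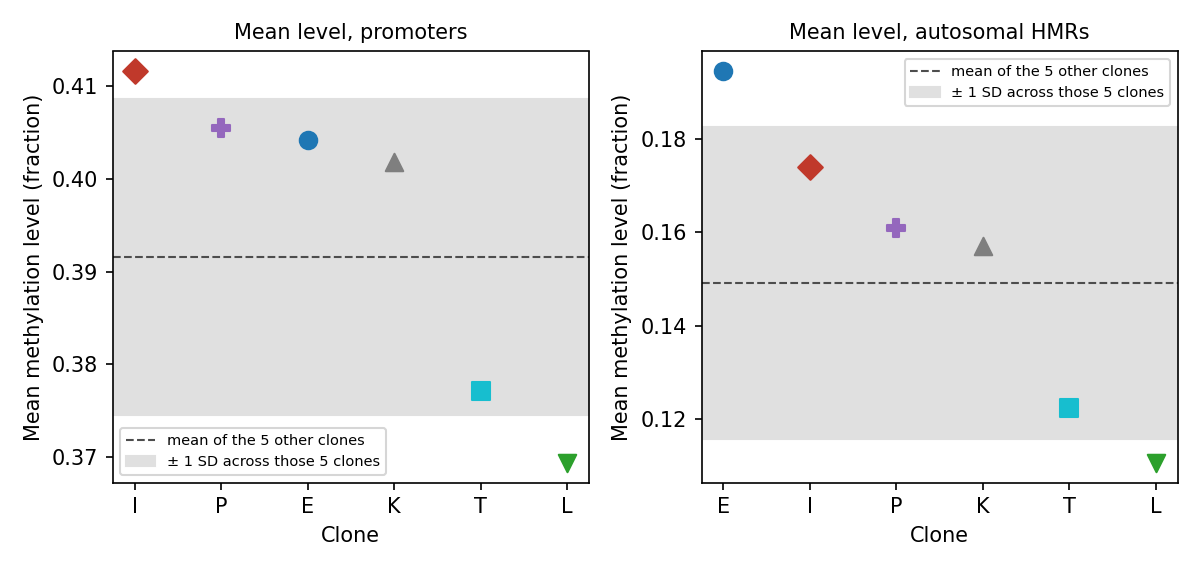
Mean methylation level (fraction) of each clone over promoters (left) and autosomal HMRs (right), with clones ordered by level, the dashed line at the mean of the 5 other clones and the grey band 1 SD across them; the vertical axes do not start at 0. Clone I is first over promoters at 0.412 and second over HMRs at 0.174, and clones T and L are lowest in both.

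The higher mean was made up of small differences at many promoters. Clone I lay above the mean of the other clones at 68.2% of promoters, and the median promoter difference was 0.0149. Promoters that differed from that mean by less than 0.1 made up 93.6% of all promoters and carried 70.8% of the excess. The 17 promoters set apart by 0.2 (0.0774%) carried 0.799% of it, and without them the excess was 0.0199. Clone I had the highest level of the 6 clones at 6106 promoters (27.8%) and the lowest at 1579 (7.19%). The share of promoters at which another clone was highest was 19.8% for P, 18.8% for E, 18.5% for K, 7.48% for L and 7.46% for T. Against single clones, clone I was higher at 57.2% of promoters than E, at 58.8% than K and at 55.3% than P. It was higher at 73.0% than T and at 74.9% than L. The promoters of clone I were nearest to those of clone E, with a mean absolute difference of 0.0401, followed by P (0.0410), K (0.0436), T (0.0514) and L (0.0591). No spread between cultures of a single clone is known here, so whether E and P differ in nearness was not tested.

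The size of the excess varied with the promoter's level, taken as its mean over all 6 clones. In the 5294 promoters under 0.1, clone I was at 0.0479 and clone E slightly higher at 0.0481. Clone I was highest in each of the other classes. The excess over the mean of the others was 0.00460 under 0.1, 0.0178 between 0.1 and 0.3, 0.0304 between 0.3 and 0.5, 0.0326 between 0.5 and 0.7, 0.0255 between 0.7 and 0.9, and 0.0180 over 0.9. It was thus largest at promoters of intermediate level and smallest at those that were nearly unmethylated in all clones. Over clones E, K and P alone the excess lay between 0.00349 and 0.0117 in every class.

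**Figure D2:**
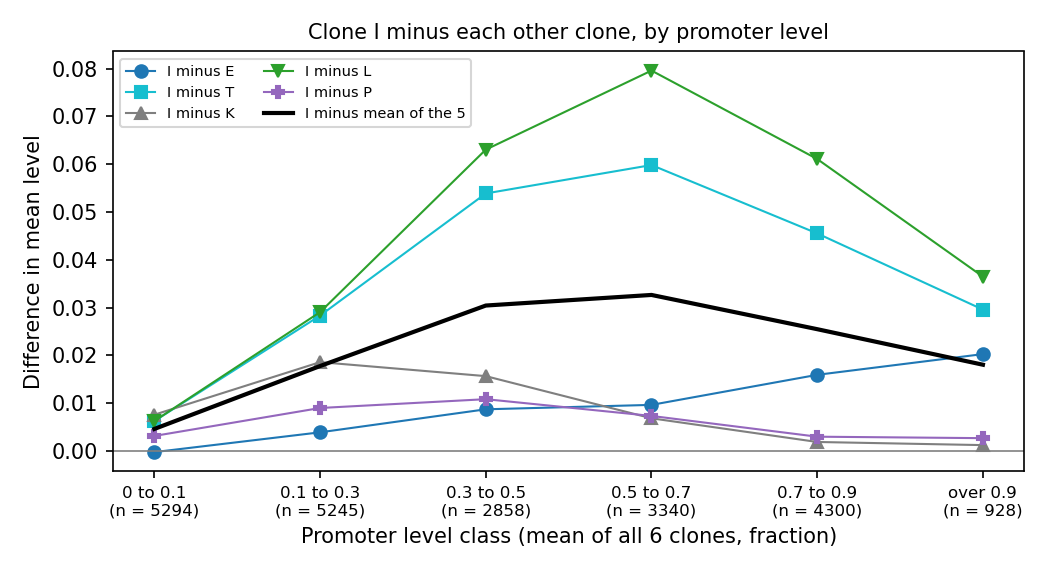
Mean level of clone I minus that of each other clone (coloured lines) and minus the mean of the 5 (black), in 6 classes of promoters by their mean level over all clones. The differences to T and L are largest in the class from 0.5 to 0.7, where the black line reaches 0.0326, and the difference to E is close to 0 in the class under 0.1.

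The excess was spread over the chromosomes. Clone I had the highest mean promoter level on 18 of 19 autosomes, the exception being chromosome 18, where clone P was at 0.435 and clone I at 0.433. The excess ran from 0.0142 on chromosome 3 to 0.0253 on chromosome 10 and was 0.0287 on chromosome X. When neighbouring promoters were taken in blocks of 10, a size chosen after the data were seen, clone I was highest in 943 of 2177 blocks (43.3%) and lowest in 16. Clone P was highest in 464 blocks, E in 367, K in 353, L in 30 and T in 20. Without the promoters of olfactory and vomeronasal receptor genes the excess was 0.0190.

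Clone I was then compared promoter by promoter. Beside its 13 promoters above all others and 4 below, the same margin of 0.2 set apart clone E at 20 above and 1 below, K at 14 and 3, P at 10 and 2, L at 7 and 30, and T at 4 and 27. Promoters above outnumbered those below in I, E, K and P, and the reverse held in T and L. The counts of clone I were not tested against those of the other clones. After each clone was centred on its median, which lowers clone I against the others by construction, 6 promoters lay above and 6 below in clone I. With a margin of 0.1 there were 185 above (0.842%) and 25 below (0.114%).

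**Figure D3:**
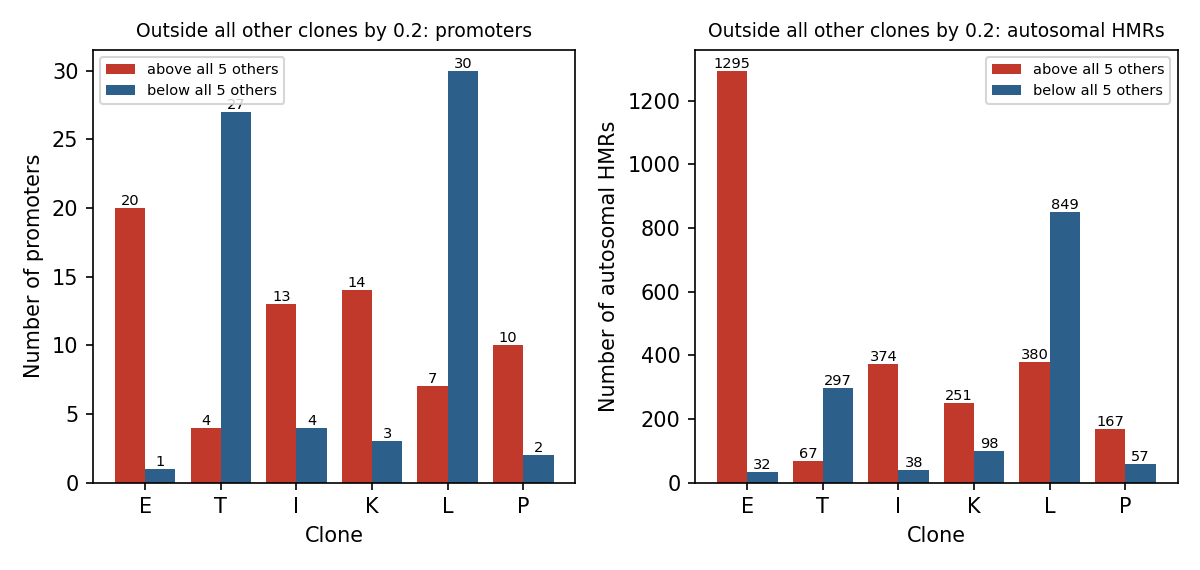
Number of promoters (left) and autosomal HMRs (right) at which each clone lay above (red) or below (blue) all 5 other clones by at least 0.2. Clone I has 13 and 4 promoters and 374 and 38 HMRs, and the red bars exceed the blue ones for I, E, K and P in both panels.

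The widest gap among promoters was at Zfp600, a zinc-finger gene on chromosome 4. The second of its 2 measured promoters was at 0.750 in clone I, 0.250 in E, 0.182 in T, 0.278 in K, 0.250 in L and 0.20 in P. Such simple fractions may rest on few reads or sites, and the depth behind them is unknown. The first was at 0.263 in clone I and at 0.0946 in E, 0.0615 in T, 0.111 in K, 0.0698 in L and 0.114 in P. Clone I was thus the highest clone at both promoters of the gene, and in neither did the other 5 clones reach its level. The limma adjusted p of the second promoter was 0.0517, just past the threshold of 0.05. It ranged widely over the alternatives: it was 0.388 without the mean trend, 0.107 on the logit scale and 0.0601 to 0.174 with a clone left out, against 0.0261 on the arcsine scale and 0.000261 after centring. With only those promoters tested whose range over the clones reached 0.1 it was 1.07e-07, but every promoter set apart enters that selection by its construction.

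Rdx on chromosome 9 encodes radixin, which links actin filaments to the cell membrane, and its CpG-containing upstream window is printed above. Its first measured promoter was at 0.683 in clone I, 0.345 in E, 0.451 in T, 0.362 in K, 0.453 in L and 0.446 in P. Its second was at 0.831 in clone I and at 0.530 to 0.743 in the others. Both Rdx promoters were highest in clone I, but at the second the gap to the nearest clone, P, was 0.0885. The limma adjusted p of the first was 0.526. Atp8b5 on chromosome 4, a gene of the lipid-flipping P4-ATPase family, was at 0.630 in clone I, 0.350 in E, 0.296 in T, 0.316 in K, 0.325 in L and 0.249 in P. The other 5 clones lay close together at Atp8b5, at 0.307 ± 0.0379 (SD, n = 5), and the limma adjusted p was 0.332. These 2 genes were the members with 10 CpGs in the printed window.

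Among the 13 higher promoters were those of 2 olfactory receptors, genes used by the sensory neurons of the nose. The promoter of Olfr1000 on chromosome 2 was at 0.535 in clone I, 0.174 in E, 0.0213 in T, 0.0811 in K, 0.116 in L and 0.132 in P, with a limma adjusted p of 0.0576. That of Olfr987, also on chromosome 2, was at 0.675 in clone I and within 0.417 to 0.455 in the other 5. The vomeronasal pseudogene Vmn1r-ps103 on chromosome 13 was at 0.679 in clone I and at 0.0847 to 0.449 in the others. At Olfr987 the others were nearly alike, and at Vmn1r-ps103 they ranged widely.

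H2-Q2 on chromosome 17 belongs to the Q region of the major histocompatibility complex. Its promoter was at 0.733 in clone I, 0.172 in E, 0.395 in T, 0.486 in K, 0.484 in L and 0.216 in P. The other clones fell into a wide range there, and the limma adjusted p was 0.774. The promoters of 2 major urinary protein genes on chromosome 4 were also higher in clone I. Mup10 was at 0.433 against 0.135 to 0.232, and Mup1 at 0.379 against 0 to 0.158. Mup10 lay just inside the margin, and Vmn1r222, at 0.462 against 0.134 to 0.264, lay just outside it. H2-Q2, the Mup genes, Zfp600 and the receptor genes have close relatives nearby in the genome, so reads from the copies could be mixed and their levels are uncertain.

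The remaining higher promoters were those of Tmprss15, Gm5797, 4933406F09Rik and Gm14850. Tmprss15 on chromosome 16 encodes enteropeptidase, the intestinal activator of trypsin, and was at 0.618 in clone I and 0.125 to 0.414 in the others. Tmprss15 and Mup1 are named beyond the rule, after their values were seen. On chromosome 14, Gm5797 was at 1.00 in clone I against 0.429 to 0.70, and 4933406F09Rik was at 0.50 against 0.20 in K and 0 in the other 4. Gm14850 was at 0.455 against 0.10 to 0.214. Levels of such simple fractions may rest on few reads or sites, and the depth behind them is unknown. Of the 13 higher promoters none was called, with limma adjusted p from 0.0517 to 0.774.

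Promoters below all others numbered 4. The promoter of Cylc1, a gene of the sperm head skeleton on chromosome X, was at 0.0909 in clone I, 0.360 in E, 0.345 in T, 0.389 in K, 0.360 in L and 0.471 in P. Ifna14 on chromosome 4, a type I interferon gene, was at 0.148 in clone I, 0.425 in E, 0.354 in T, 0.397 in K, 0.378 in L and 0.486 in P. Olfr1033 on chromosome 2 was at 0.111 against 0.333 to 0.529, and 4933436I01Rik on chromosome X was at 0.458 against 0.667 to 0.818. At each of them clone I stood alone below the group of the 5 others. Ifna14 lay just inside the margin and Olfr292 on chromosome 7, at 0.308 against 0.50 to 1.00, just outside it. None of the 4 was called, with limma adjusted p from 0.464 to 0.70.

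Tested over all 21965 promoters with limma, which takes the spread of the 5 other clones as that of clone I, 3 promoters were called at an adjusted p under 0.05 (0.0137%), and all 3 were higher in clone I. At an unadjusted p under 0.05 there were 1128 of the 21965, of which 996 were higher and 132 lower. With no difference about 1 in 20 promoters would pass that threshold, and the total was close to that rate. The promoter of Htr5b, a serotonin receptor gene on chromosome 1, was at 0.170 in clone I, 0.0346 in E, 0.0332 in T, 0.0435 in K, 0.0360 in L and 0.0334 in P, and the limma adjusted p was 0.00415. Olfr872 on chromosome 9 was at 0.140 in clone I, 0.0133 in T and 0 in the other 4 (limma adjusted p = 0.00182). Vmn2r32 on chromosome 7, a vomeronasal receptor gene, was at 0.0952 in clone I and 0 in all 5 others (limma adjusted p = 0.00224). In all 3 the other clones were listed at 0 or near it and were nearly equal, and the level of clone I was itself low. The depth behind the listed values of 0 is unknown. None of the 3 differed by the 0.2 that set other promoters apart. All 3 calls ended without the mean trend, with limma adjusted p of 0.526 for Htr5b and Olfr872 and 0.694 for Vmn2r32, and after centring, with 0.997 for each. Htr5b was also not called on the logit scale (0.103).

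**Figure D4:**
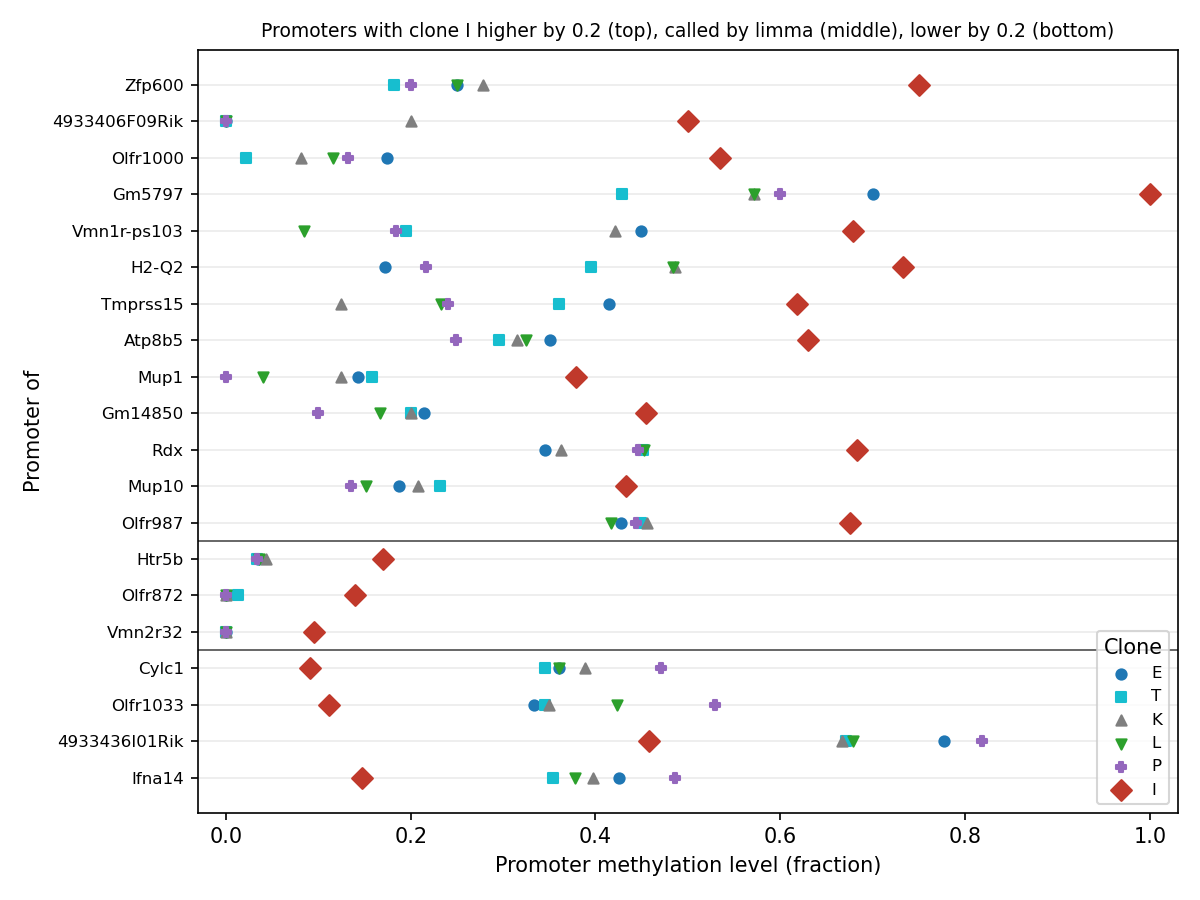
Methylation level (fraction) of single promoters in each clone, with clone I as red diamonds, for the 13 promoters higher by 0.2 (top), the 3 called by limma (middle) and the 4 lower by 0.2 (bottom). The red diamonds stand to the right of all other symbols in the upper rows and to the left in the 4 rows at the bottom.

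Both Serpine2 and Slpi, genes of protease inhibitors, were examined whatever their values. The promoter of Serpine2, which encodes protease nexin-1, was at 0.611 in clone I, 0.449 in E, 0.229 in T, 0.309 in K, 0.489 in L and 0.323 in P. Clone I was the highest and exceeded the nearest clone, L, by 0.122, while the others ranged widely (0.360 ± 0.107, SD, n = 5; limma adjusted p = 0.908). The promoter of Slpi, the secretory leukocyte peptidase inhibitor, was at 0.690 in clone I, 0.614 in E, 0.579 in T, 0.60 in K, 0.580 in L and 0.673 in P. Clone I was highest there too, close to P, with a limma adjusted p of 0.955.

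Gene groups were described by counts, beside the 68.2% of all promoters above the mean of the others, the 27.8% with clone I highest and the median difference of 0.0149. Imprinted genes are mainly expressed from the allele of a single parent. Of their 54 promoters 46 lay above the mean of the others, 26 were highest in clone I (48.1%) and the median difference was 0.0284. Igf2r, the imprinted receptor that clears insulin-like growth factor 2, was at 0.799 in clone I, 0.649 in E, 0.668 in T, 0.373 in K, 0.657 in L and 0.306 in P. Igf2r varied among the other clones more than clone I exceeded them, and it was not called (limma adjusted p = 0.955). Of 51 promoters of autosomal germline genes 46 lay above and 20 were highest in clone I, with a median difference of 0.0258. Their mean was 0.808 in clone I, 0.801 in P, 0.798 in K, 0.795 in E, 0.764 in T and 0.736 in L. Of 39 HOX promoters 34 lay above and 14 were highest (median 0.0224), and of 118 promoters of developmental transcription factors 103 lay above and 43 were highest (median 0.0209). Hoxd3, a HOX gene of body patterning, was at 0.659 in clone I and 0.408 to 0.556 in the others (limma adjusted p = 0.938). Of 54 promoters of tumour suppressor genes 45 lay above and 16 were highest, with a median difference of 0.0158. In each of these 5 groups clone I had the highest mean level, and clones T and L had the lowest. The developmental transcription factors averaged 0.755 in clone I, 0.747 in P, 0.746 in K and 0.741 in E, against 0.711 in T and 0.707 in L. The imprinted promoters averaged 0.678 in clone I, 0.660 in K and E and 0.659 in P. Counts above the mean of the others thus do not show how far clone I lay above E, K and P. No promoter of these 5 groups was called. Over all promoters the share called was 0.0137%, so groups of this size would seldom hold a call.

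The listed antigen presentation and interferon genes did not share the higher level of clone I, which was not tested. This list does not hold H2-Q2, which was higher in clone I, or Ifna14, which was lower. Of the 48 promoters on the list 22 lay above the mean of the others, 5 were highest and 5 lowest in clone I, and the median difference was -0.00193. Their mean was 0.266 in clone I and 0.270 ± 0.0177 (SD, n = 5) in the others, so clone I lay within the spread of the other clones for this group. Cd74, the invariant chain of class II antigen presentation, was at 0.194 in clone I and 0.278 to 0.386 in the others, and Isg15, an interferon-stimulated gene, was at 0.278 against 0.217 to 0.484. Neither was called (limma adjusted p of 0.955 and 0.957), and both were named after their values were seen, as were Igf2r, Hoxd3 and Grhl1. Of 30 promoters of the DNA methylation machinery 17 lay above the mean of the others, with a median difference of 0.00644. None was called, against 0.0137% of all promoters. Of 45 epithelial promoters 29 lay above, with a median of 0.0217. The first Grhl1 promoter, of an epithelial transcription factor, was at 0.420 in clone I and 0.251 to 0.320 in the others (limma adjusted p = 0.947). Of 40 mammary luminal and basal promoters 30 lay above, with a median of 0.0284.

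The remaining lists held no called promoter outside the receptor families, where the share called over all promoters was 0.0137%. Above the mean of the others in clone I were 26 of 39 mesenchymal promoters, 13 of 16 fibroblast, 19 of 28 leukocyte and 24 of 36 endothelial promoters. The counts were 26 of 44 for coagulation and serine protease genes, 26 of 37 for matrix proteases and their inhibitors, and 38 of 57 for cytokines and chemokines. Housekeeping genes gave 19 of 30, keratin-associated proteins 28 of 42, clustered protocadherins 44 of 59 and defensins 29 of 51. Zinc-finger genes of the Zfp series gave 241 of 362 and microRNA genes 386 of 559. These shares ran from 56.9% for defensins to 81.25% for fibroblast genes, on either side of the 68.2% of all promoters.

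The olfactory receptor genes formed the largest family. Of 1106 promoters 789 lay above the mean of the others and 270 were highest in clone I (24.4%), a smaller share than over all promoters, with a median difference of 0.0374. Their mean was 0.399 in clone I and 0.362 ± 0.0393 (SD, n = 5) in the others, a difference within the spread across clones. Vomeronasal receptor promoters gave 182 of 276 above and 70 highest, with a median of 0.0339. Of the 185 promoters higher by 0.1, 40 were olfactory or vomeronasal receptor promoters (21.6%), against 6.29% of all promoters. The share of these families among the promoters set apart was not tested.

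Some of the promoters set apart were neighbours. On chromosome 14 the block of 10 promoters from Gm2897 to Rpp14 averaged 0.588 in clone I, 0.477 in E, 0.435 in T, 0.461 in K, 0.463 in L and 0.476 in P, the widest gap of all blocks. It holds Gm5797 and 4933406F09Rik, described above, and Abhd6, a lipase gene at 0.377 in clone I and 0.218 to 0.302 in the others. At Gm5797 and 4933406F09Rik clone I exceeded the mean of the others by 0.426 and 0.46. Elsewhere in the block clone I was not the highest at D830030K20Rik, Gm10406, Gm3696, Dnase1l3 and Rpp14. On chromosome 7 the block from Ppfibp2 to Olfr474 averaged 0.511 in clone I, 0.426 in E, 0.409 in T, 0.418 in K, 0.357 in L and 0.434 in P. Within it the adjacent Olfr470 and Olfr472 were at 0.491 and 0.619 in clone I, against 0.267 to 0.319 and 0.355 to 0.451 in the others. In the same block clone I was not the highest at either Ppfibp2 promoter, at Ovch2 or at Olfr467. These blocks were picked for their values, and their differences carry no test.

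Over the 97247 autosomal HMRs clone I ranked second and not first. The mean level was 0.195 in clone E, 0.174 in I, 0.161 in P, 0.157 in K, 0.122 in T and 0.111 in L. Clone I exceeded the mean of the others, 0.149 ± 0.0335 (SD, n = 5), by 0.0250, less than 1 SD, and the exact permutation test gave a two-sided p of 0.667 (smallest possible 0.167). Over clones E, K and P alone the difference was 0.00320. Clone I was second on 16 of 19 autosomes and behind 2 clones on chromosomes 4, 11 and 13. It was the highest clone at 16269 HMRs (16.7%) and the lowest at 3769 (3.88%), while clone E was highest at 26512. In levels of HMRs clone I was nearest to P, with a mean absolute difference of 0.0685, followed by E (0.0704), K (0.0728), T (0.0807) and L (0.0923). By Pearson's r across the HMRs, which share libraries, E came first at 0.815 and P next at 0.792, so the order of E and P differed between the measures and was not tested. On chromosome X, outside the autosomal set, the mean HMR level was 0.134 in clone I, 0.225 in E, 0.0963 in P, 0.0654 in T, 0.0604 in L and 0.0499 in K.

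HMRs set apart by 0.2 numbered 412 in clone I (0.424%), with 374 above and 38 below. With a margin of 0.1 there were 2904 above (2.99%) and 442 below (0.455%). At 0.2, clone E had 1295 and 32, L 380 and 849, K 251 and 98, P 167 and 57, and T 67 and 297. After the same centring clone I had 241 above and 84 below. In the 374 higher HMRs the median level of clone I was 0.467 and the median of the others' mean was 0.143. In the 38 lower ones these were 0 and 0.374, and clone I was listed at exactly 0 in 28 of them. All 5 other clones were listed at 0 in 43 of the 374. A level of 0 can be an unmethylated region or one without an estimate, which the table does not tell apart. The higher HMRs had a median length of 4066 bp and the lower ones 2179 bp, against 4974 bp for all autosomal HMRs. Their share among the HMRs of a chromosome was 0.970% on chromosome 18, 0.947% on 13, 0.775% on 16 and 0.763% on 15, and it was 0.0618% on chromosome 10. Chromosome 10, with the smallest share of higher HMRs, had the largest promoter excess among the autosomes. Its mean HMR level was 0.221 in clone I, which exceeded the mean of the others by 0.0331, and 0.274 in clone E.

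The build of the HMR coordinates was not established, since 379 HMRs on chromosome 7 end past the last gene of that chromosome in GRCm38. HMRs are therefore given by the coordinates of the table, with no gene, exon or intron assigned. The HMR at chr3:100026070-100029261 was at 0.633 in clone I, 0.0600 in E, 0 in T, 0 in K, 0.0587 in L and 0.0455 in P (limma adjusted p = 0.0157). It was no longer called on the logit scale (1.00) or when clone T, K, L or P was left out (0.0601 to 0.0776). The HMR at chr5:116225208-116226739 was at 0.429 in clone I, 0.0909 in E and 0 in the other 4 (limma adjusted p = 0.0437), and it too was not called without T, K, L or P (0.193 to 0.253). At 4 further HMRs the other 5 clones were all listed at 0. Clone I was at 1.00 at chr14:53263319-53265973, at 0.50 at chr2:41344732-41349866, at 0.429 at chr9:83818369-83819194 and at 0.40 at chr18:87061804-87069097. These simple fractions may rest on few reads or sites.

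HMRs in which every clone had a level above 0 were also examined, a choice made after the values were seen. The HMR at chr14:21646743-21648324 was at 0.567 in clone I, 0.0909 in E, 0.0333 in T, 0.198 in K, 0.160 in L and 0.190 in P. That at chr1:34646576-34648938 was at 0.625 in clone I, 0.286 in E, 0.222 in T, 0.182 in K, 0.176 in L and 0.167 in P. In both the 5 others formed a low group, and neither was called (limma adjusted p of 0.257 and 0.0722). Just inside the margin, and outside that choice, was chr3:11674326-11682961, at 0.20 in clone I and listed at 0 in all 5 others. This HMR was called (limma adjusted p = 2.81e-07).

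Among the lower HMRs, chr13:55057335-55057761 was listed at 0 in clone I and was at 0.714 in E, 0.750 in T, 0.667 in K, 0.70 in L and 0.550 in P. The HMR at chr10:74779500-74779833 was at 0.0833 in clone I, 0.529 in E, 0.50 in T, 0.636 in K, 0.571 in L and 0.50 in P. That at chr11:81849914-81853676 was at 0.129 in clone I and 0.434 to 0.631 in the others. In each of them the other 5 clones lay together and clone I lay far below. A further 3, at chr12:69089361-69094042, chr16:92684792-92686139 and chr14:18507974-18511926, were listed at 0 in clone I and were at 0.40 to 0.667, 0.317 to 0.732 and 0.304 to 0.786 in the others. None of the lower HMRs was called, the smallest limma adjusted p among all autosomal HMRs with clone I lower being 0.146. This depended on the scale. With logit values 30 HMRs with clone I lower were called, among them chr12:69089361-69094042 (limma adjusted p = 0.0217).

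Most HMRs set apart stood singly. At the margin of 0.2 the higher ones formed 364 runs of 1 HMR and 5 runs of 2, and all 38 lower ones stood singly. At the margin of 0.1, 2636 higher HMRs stood singly and 113 runs held 2. The longest run of consecutive autosomal HMRs with clone I above all others by 0.1 held 6 HMRs on chromosome 14, from 29970484 to 30015653. Their mean was 0.542 in clone I, 0.278 in E, 0.274 in L, 0.202 in P, 0.149 in K and 0.0973 in T. The level of clone I in the 6 HMRs ran from 0.370 to 0.80. At chr14:30000539-30003431, the fifth of them, clone I was at 0.80, E at 0.464, L at 0.369, P at 0.271, K at 0.152 and T at 0.146. No HMR of the run was called. Over blocks of 50 consecutive HMRs, a size chosen after the data were seen, clone I was highest in 309 of 1937 (16.0%) and clone E in 1305. The block with the widest gap, at chr15:91787012-92624987, averaged 0.409 in clone I, 0.342 in P, 0.333 in E, 0.284 in K, 0.192 in T and 0.167 in L.

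**Figure D5:**
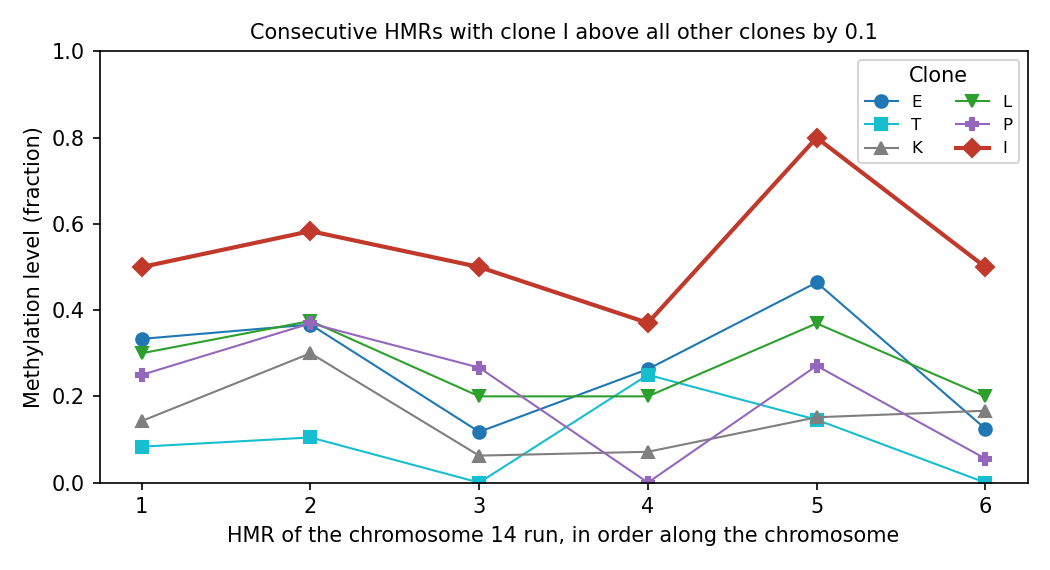
Methylation level (fraction) of each clone in the 6 consecutive HMRs of chromosome 14, in their order along the chromosome. Clone I (red diamonds) lies between 0.370 and 0.80 and above every other clone in all 6.

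On the deposited fractions the limma test over all HMRs called 588 autosomal HMRs (0.605%), all higher in clone I. An unadjusted p under 0.05 was reached by 4258 of the 97247, fewer than the 1 in 20 that would pass with no difference. Of the 588 called, 523 had all 5 other clones listed at 0, and these were every autosomal HMR with clone I above 0 and the others at 0. The median difference of the called HMRs was 0.0909, and 61 of them were set apart by 0.2. The opposite pattern, clone I at 0 and all 5 others above 0, was present in 1265 HMRs, none of which was called. Centring on the clone median left 2 called HMRs, a filter for a range of at least 0.1 left 1, and restricting the test to HMRs above 0 in all 6 clones gave 1. In simulated HMR levels the test recovered 0% of 200 HMRs changed by 0.2 and 64.0% of those changed by 0.8, while 81 and 111 unchanged HMRs were called. The simulated levels varied with each HMR's spread over all 6 clones, clone I included. They therefore do not stand for HMRs with clone I above 0 and no spread among the 5 others. The count of 588 is given as a description: most of the called HMRs, though not all, are regions at which the 5 other clones were listed at 0.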

How the data were processed

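Per the labels' protocols, genomic DNA was bisulfite converted and sequenced. The deposited values are fractions made by the authors, 1 per clone; the sources used here do not give how the 2 rounds were combined, the aligner or the HMR caller. The submitters' processing notes name bedtools, DESeq and mm10. No counts came with the tables, so the depth is unknown and no interval is given. Of 22110 promoter rows, 145 repeats were dropped, and 249 promoters share their levels with another gene. RefSeq (GRCm38.p6) gave chromosomes for 18885 of 20343 gene names by symbol and 1360 by synonym. Its promoter windows matched 76.6% of promoters, so a comparison of CpG content was void.

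Clone I was tested against the 5 others with limma 3.58.1 (R 4.3.3, eBayes with trend, Benjamini-Hochberg over all promoters or all HMRs); its lone value is assumed to vary like the others. SDs are across clones, and the rounds are not stated to be separate cultures. Means were compared by exact permutation in Python 3.11.15. On simulated promoter levels limma recovered 0% of changes of 0.1, 27.0% of 0.2 and 79.5% of 0.4, with 1, 3 and 7 unchanged promoters called. The simulated levels varied with each promoter's spread over all clones, clone I included. Promoters named were, in each direction, up to 12 that were called and outside all others, filled by gap from those outside by 0.2, list members meeting these criteria, those nearest the margin, and Serpine2 and Slpi; HMRs, up to 6 in each direction. The members, the 24 gene lists and the tests were chosen with earlier results of these data known. Alternatives were logit (bounds 0.01 and 0.99) and arcsine values, no trend, centring, filters on range and level, an adjusted p under 0.10, other margins, autosomes alone and each clone left out.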

Additional observations from a re-analysis of the deposited data

Results flagged for a closer look

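In 4 of 50 results examined, 1 of the 5 clones other than I stood apart from the remaining 4. Chance flags about 1 in 20 such groups if the values are normally distributed. Where the remaining 4 are all at 0, any level above 0 is flagged, so that rate does not hold there. At the promoter of 4933406F09Rik clone K was at 0.20 and the remaining 4 at 0. At the promoter of Htr5b clone K, at 0.0435, was the highest of a narrow group. At the promoter of Olfr872 clone T was at 0.0133 and the remaining 4 at 0. At the HMR at chr5:116225208-116226739 clone E was at 0.0909 and the remaining 4 at 0.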

How the results depend on the processing

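The 3 called promoters became 5 with logit values, 7 with arcsine values, 0 without the mean trend (limma, 1215 at an unadjusted p under 0.05), 8 after centring (4 higher, 4 lower), 21 with a range of at least 0.1 (17 higher, 4 lower), 10 at an adjusted p under 0.10, 6 among autosomal promoters, 1 among promoters above 0 in all clones, and 3 to 7 with a clone left out (7 without E and 7 without K). None of the 8 and none of the 21 was among the original 3. The 588 called HMRs became 560 with logit values (530 higher, 30 lower) and 528 with arcsine values (524 higher, 4 lower). Without the mean trend they became 572 (569 higher, 3 lower). They became 2 after centring, 1 with a range of at least 0.1, 2 where the mean level reached 0.1, 1 among HMRs above 0 in all clones, and 655 to 1308 with a clone left out (1308 without E). The 17 promoters set apart became 210 at a margin of 0.1 and 4 at 0.3, and 19 to 36 with a clone left out (36 without E, 26 without P). The 412 HMRs set apart became 3346 at 0.1, 51 at 0.3, 210 among those above 0 in all clones, and 525 to 1305 with a clone left out (1305 without E). The cause of these changes was not tested, except that leaving out a clone can only add regions set apart, by construction. The excess in the mean promoter level was 0.0145 to 0.0235 with a clone left out and 0.0294 for the median. That of HMRs was 0.0154 to 0.0364 with a clone left out. Because clone I has the highest mean promoter level, leaving out another clone cannot make its promoter excess negative. These ranges do not cover centring, which lowers clone I against the others by construction. The comparison with E, K and P alone and the restriction to promoters above 0 were chosen after the data were seen. Of the settings for single named regions 465 kept their side of the threshold, 29 passed it and 33 lost it, with no change of direction. No paired analysis was possible because the columns carry no round.

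Clone I is 1 value, so differences between clones cannot be told apart from differences between cultures or libraries of clone I.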
